A study of Mus musculus with 2 samples.

Results

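Laminins are trimeric proteins of the basement membrane, each built from an α, a β and a γ chain, and nidogens link the laminin network to type IV collagen. Integrins are cell surface receptors, each a pair of an α and a β subunit, that bind laminins, collagens, fibronectin and other ligands and connect them to the actin or keratin skeleton. In the embryonic lung the basement membrane lies between the branching epithelium and the mesenchyme, and laminins and integrins are known for their parts in branching, vessel growth and the anchoring of epithelial cells.

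The genes described here are the 11 laminin chains, 2 nidogens and 26 integrin subunits of the mouse, 39 genes among 43346 Ensembl genes in the deposited tables. They were chosen by symbol alone, as protein-coding genes named Lama, Lamb, Lamc, Itga or Itgb with a chain number or letter, with Nid1 and Nid2, and all 39 were found. Total RNA longer than 200 nt was sequenced from whole lung of B6NCrl mice at embryonic day 15.5. Both libraries, made from 10 ng of RNA, form 1 group; 78 embryos were pooled for replicate 1 and 62 for replicate 2, each with males and females mixed. No treatment, mutation or second tissue is in the series, so the comparisons are between members, between transcripts of a member and between the libraries. Levels are in TPM, a share of all transcripts in the library that is corrected for transcript length, and are given for replicate 1 and then replicate 2. A mean is given with its SD over n = 2 libraries.

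The libraries held 40395849.8 and 36601054.1 estimated reads, of which the 39 genes took 161693 and 141598, or 0.409% and 0.396% of the reads in genes. The biological coefficient of variation over 14583 genes was 0.0652. Markers of lung epithelium, mesenchyme, smooth muscle, endothelium and mesothelium were all detected, each at 1 TPM or more in both libraries. Summed T cell and thymus markers were 96.4 TPM in replicate 1 and 19.1 TPM in replicate 2, with 7 of 7 higher in replicate 1 and 4 past the rule for genes apart that is given with the comparison of the libraries. Summed liver markers were 31.6 TPM in replicate 1 and 143 TPM in replicate 2, with 5 of 5 lower in replicate 1 and past the same rule. Of 6 heart and skeletal muscle markers 4 were past that rule, all lower in replicate 1, while Actc1, with 429 and 339 TPM, and Tnnt2, with 160 and 132 TPM, were higher there. Their sum was 654 TPM in replicate 1 and 714 TPM in replicate 2.

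The cytoplasmic ends of the laminin receptor subunits α6 and α3 exist in A and B forms, which differ by whether an exon near the 3′ end of the gene is kept. The coding ends below are shown because the split between them is a result of the transcript tables. The annotated A forms of both genes also extend 3′ past the B end, so a read on a B end need not come from a B form. They are the last coding bases of the forms, read from GENCODE M21 on GRCm38, with the stop codon in capitals.
Itga6 A, chr2:71853534-71853641, plus strand: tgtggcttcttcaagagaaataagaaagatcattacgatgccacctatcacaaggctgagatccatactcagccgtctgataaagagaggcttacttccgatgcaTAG
Itga6 B, chr2:71855854-71856015, plus strand: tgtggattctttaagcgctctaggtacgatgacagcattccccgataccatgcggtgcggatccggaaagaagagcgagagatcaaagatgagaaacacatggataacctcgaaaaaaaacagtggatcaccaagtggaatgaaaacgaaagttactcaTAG
Itga3 A, chr11:95046480-95046590, minus strand: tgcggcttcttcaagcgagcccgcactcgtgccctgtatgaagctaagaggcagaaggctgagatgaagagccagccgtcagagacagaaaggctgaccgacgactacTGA
Itga3 B, chr11:95045608-95045763, minus strand: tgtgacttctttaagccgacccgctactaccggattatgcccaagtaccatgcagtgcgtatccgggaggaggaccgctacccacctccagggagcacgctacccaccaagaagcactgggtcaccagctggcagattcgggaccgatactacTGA
The A ends had 105 coding bases in Itga6 and 108 in Itga3, and the B ends had 159 and 153. Over their first 15 bases, which encode the conserved segment next to the membrane, the 4 ends had the same base at 11 positions, and the A ends of both genes matched each other at 14.

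Of the 39 genes, 34 were detected, against 60.7% of all protein-coding genes. All 11 laminin chains and both nidogens were detected, and 21 of 26 integrin subunits. The median over the integrin subunits was 4.75 ± 0.279 TPM, close to the 4.76 ± 0.332 TPM over all 21474 protein-coding genes. The 5 genes that were not detected were the collagen receptor subunits Itga10 and Itga11 and the leukocyte subunits Itgae, Itgax and Itgad. In a whole tissue a low level can come from few cells with the gene or from little RNA in each, and these cannot be told apart.

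**Figure D1:**
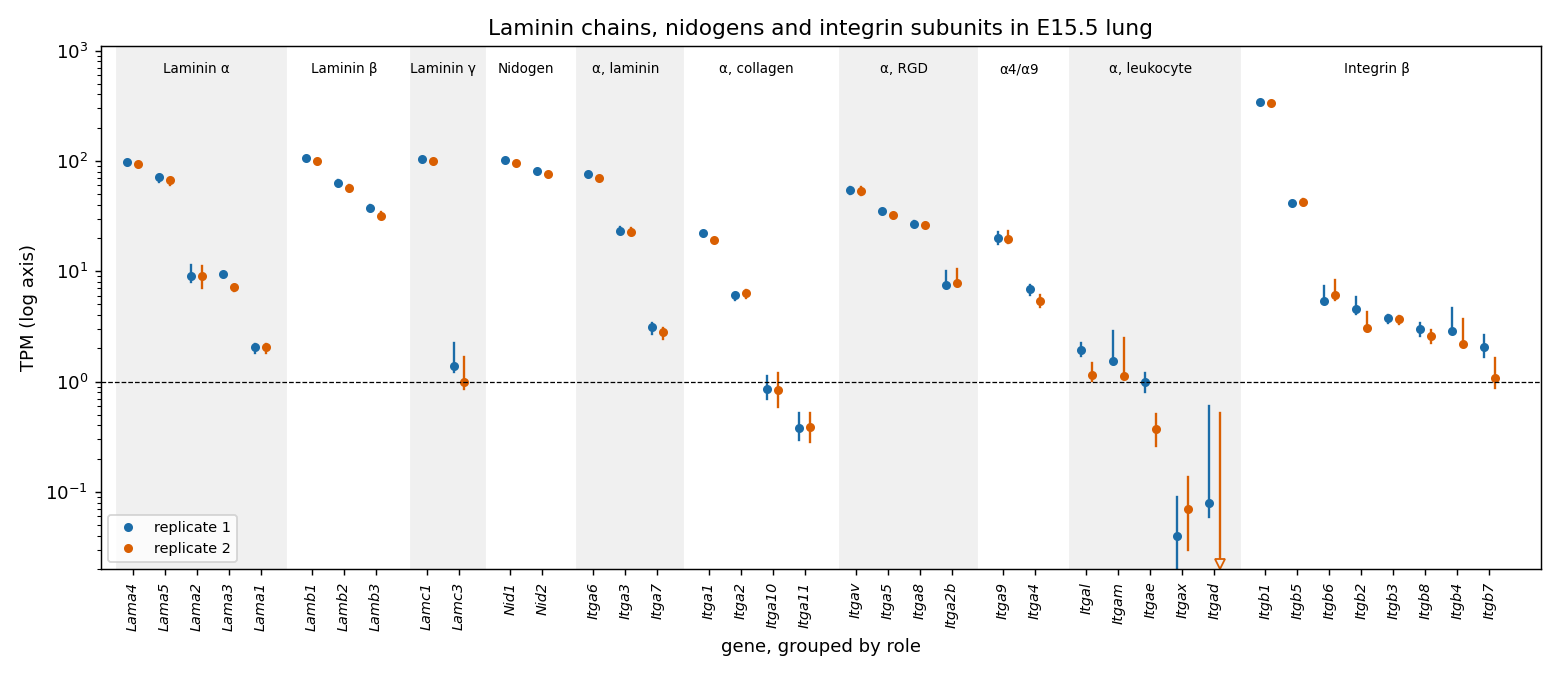
TPM of each gene on a log axis, with replicate 1 on the left and replicate 2 on the right of each pair and vertical lines for the deposited TPM intervals; genes are ordered by mean TPM within a role, the dashed line marks 1 TPM and the open triangle marks Itgad, listed at 0 in replicate 2. Most laminin and nidogen genes lie well above the dashed line, Itgb1 stands apart at 340 and 332 TPM, and the leukocyte subunits lie at the bottom.

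Among the laminin α chains, Lama4 and Lama5 led. Lama4 (ENSMUSG00000019846.7; chromosome 10, 38965515 to 39110188), the α chain of vessel and mesenchymal laminins, had 97.0 and 93.1 TPM. Lama5 (chromosome 2, 180176373 to 180225859), the widely expressed α chain of epithelial basement membranes, had 70.9 and 66.8 TPM. Lama4 was 1.38 ± 0.0185 times Lama5, in the same order in both libraries and with intervals that did not overlap in either. Over long coding transcripts, defined with the transcript results, it was 3.03 ± 0.175 times Lama5.

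The other α chains were low. Lama2, the muscle and nerve laminin chain, had 9.14 and 8.98 TPM, and Lama3, the α chain of the laminin that anchors epithelia through hemidesmosomes, had 9.45 and 7.25 TPM. The order of Lama2 and Lama3 turned between the libraries, so they could not be ordered. Lama1, a chain best known from early embryos and from kidney and lung epithelium, had 2.05 TPM in both libraries, and Lama4 was 46.4 ± 1.32 times Lama1, or 29.4 ± 1.20 times over long coding transcripts. Of the summed α chain TPM, Lama4 held 51.9% ± 0.577, Lama5 37.5% ± 0.0856 with 4.94% for Lama2, 4.54% for Lama3 and 1.12% for Lama1.

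Among the β chains, Lamb1 (chromosome 12, 31265234 to 31329644), the β chain of most embryonic laminins, had 106 and 98.7 TPM. Lamb2, which takes its place in many mature basement membranes, had 62.7 and 56.2 TPM. Lamb3, the β chain found in the hemidesmosomal laminin, had 37.1 and 31.9 TPM. Each step of this order was separate in both libraries, Lamb1 being 1.72 ± 0.0486 times Lamb2 and Lamb2 1.72 ± 0.0504 times Lamb3.

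Among the γ chains, Lamc1 (chromosome 1, 153218922 to 153332786), the γ chain of most laminins, had 103 and 100.3 TPM. Lamc3 had 1.38 and 1.00 TPM, so replicate 2 stood at the minimum for detection. Lamc1 was 87.5 ± 18.1 times Lamc3, and 54.9 ± 10.2 times over long coding transcripts.

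Lamb3 and Lama3, chains of the same hemidesmosomal laminin, were not at equal levels. Lamb3 was 4.17 ± 0.336 times Lama3, with separate intervals in both libraries. The Lama3 value includes a long form, and Lama3-202, the short form of this laminin, had 3.31 and 2.40 TPM. Summed by role, the α chains had 188 and 178 TPM and the β chains 206 and 187 TPM. Over long coding transcripts the sums were 98.5 and 89.7 TPM for the α chains and 172 and 159 TPM for the β chains.

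By gene TPM the nidogens stood at the level of the leading laminin chains. Nid1 had 102 and 96.4 TPM and Nid2 80.4 and 75.4 TPM, and Nid1 was 1.28 ± 0.00606 times Nid2. Over long coding transcripts the nidogen values were the same, while Lamb1 had 91.97 and 86.95 TPM and Lamc1 65.8 and 62.1 TPM. Exons of Nid2 overlap those of Rtraf, a gene on the other strand with 173 and 174 TPM. Whether counting used strand is not stated, and the share of Rtraf reads in the Nid2 value was not tested.

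**Figure D2:**
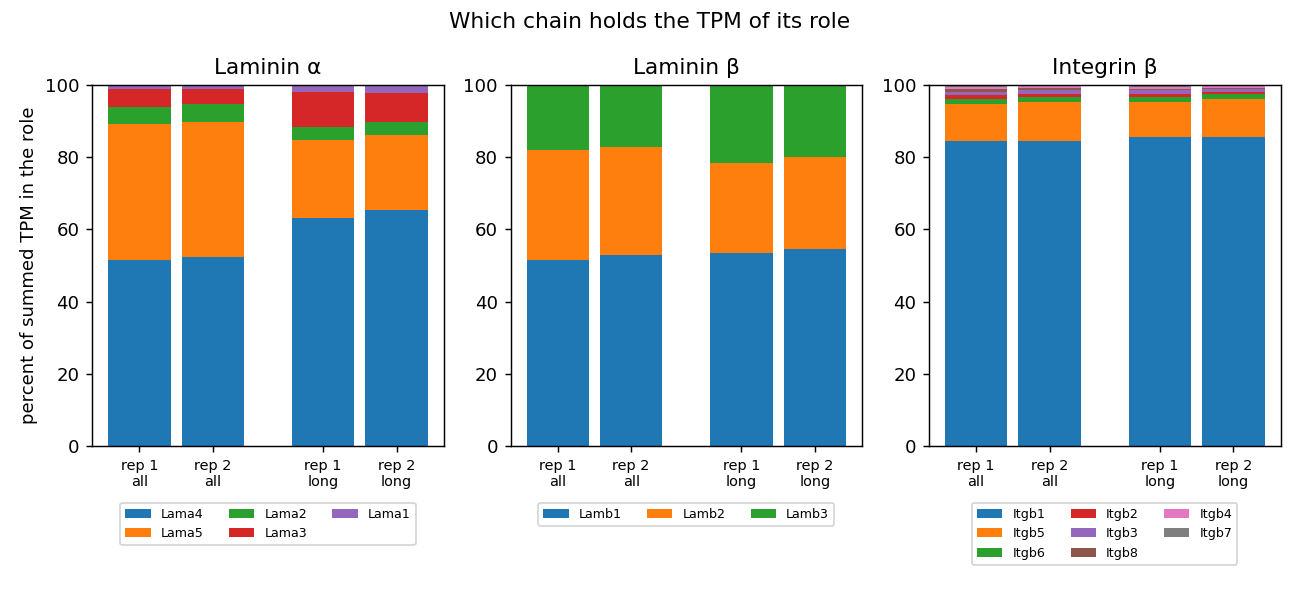
Percent of the summed TPM of a role held by each chain, in replicate 1 and replicate 2, over all transcripts of each gene (left pair of bars) and over long coding transcripts alone (right pair). Lama4 holds 51.9% of the laminin α TPM on average over all transcripts and 64.2% over long coding transcripts, while Itgb1 holds 84.5% and 85.5% of the integrin β TPM.

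The laminin receptor α subunits of the integrins were led by Itga6. Itga6 (ENSMUSG00000027111.11; chromosome 2, 71745616 to 71858416), whose product pairs with β1 or β4, had 75.8 and 70.4 TPM. Itga3, a laminin receptor of lung and kidney epithelium, had 23.0 and 22.6 TPM. Itga7, the laminin receptor of muscle, had 3.12 and 2.80 TPM. Each step of this order was separate in both libraries, and Itga6 was 3.20 ± 0.122 times Itga3, or 1.69 ± 0.0376 times over long coding transcripts.

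Among the collagen receptor α subunits, Itga1 led with 22.1 and 19.4 TPM, and Itga2 had 6.07 and 6.36 TPM. These genes are neighbours on chromosome 13 (Itga2 114833081 to 114932100, Itga1 114953096 to 115101964), and Itga1 was 3.34 ± 0.422 times Itga2. Itga10, known from cartilage, had 0.85 and 0.84 TPM, and Itga11, known from fibroblasts, had 0.38 and 0.39 TPM. The deposited annotation counted a transcript of 5984 nt for Itga1 and 4214 nt for Itga2, where the newer M21 has 10967 and 7108 nt, so reads in the added ends were not counted for these genes.

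Among the α subunits that recognise the RGD motif of fibronectin and vitronectin, Itgav had 54.7 and 53.9 TPM. Itga5, the fibronectin receptor subunit, had 34.9 and 32.2 TPM. Itga8, a receptor of mesenchymal cells for nephronectin, had 27.0 and 26.1 TPM. Itga2b, the platelet subunit, had 7.54 and 7.87 TPM, or 3.18 and 3.92 TPM over long coding transcripts. Its platelet partner Itgb3 had 3.75 and 3.70 TPM, and the summed megakaryocyte and platelet markers had 64.5 TPM in both libraries, led by Pf4 with 49.2 and 47.3 TPM. None of those 8 markers was at 0, and 5 were detected. Whether the Itga2b value comes from such cells was not tested.

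Itga9, which binds tenascin C and is known from lymphatic vessels, had 19.9 and 19.4 TPM. Its relative Itga4, which binds Vcam1 and fibronectin, had 6.84 and 5.40 TPM. The leukocyte α subunits were the lowest set, with a summed level of 4.57 and 2.72 TPM. Itgal, a subunit of lymphocytes, had 1.94 and 1.15 TPM, and Itgam, of macrophages and granulocytes, had 1.52 and 1.13 TPM. Itgae, the subunit of lymphocytes in epithelia, had 0.99 and 0.37 TPM. Itgax had 0.04 and 0.07 TPM on 4 and 7 reads. Itgad was at 0.08 TPM on 4 reads in replicate 1 and at 0 reads in replicate 2, which allows up to 0.0489 TPM by counting error alone, while the deposited interval there ran from 0.0253 to 0.524 TPM. Exons of Itgad overlap genes on the other strand that summed to 21.03 and 16.51 TPM, and their part in its reads was not tested. Itgam, Itgax and Itgad lie next to each other on chromosome 7, with 11.1 and 3.72 kb between them. Itgal and Itgam could not be ordered, nor could Itgax and Itgad.

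Itgb1 dominated the β subunits. Itgb1 (ENSMUSG00000025809.11; chromosome 8, 128685654 to 128733200), the common partner of 12 of the 18 α subunits, had 340 and 332 TPM, a mean of 336 ± 5.48, and was the highest of the 39 genes. It held 84.5% ± 0.0305 of the summed β TPM and was 8.05 ± 0.300 times Itgb5, the next one, a partner of αv with 41.1 and 42.4 TPM. Itgb6, the partner of αv on epithelium, had 5.37 and 6.04 TPM. Itgb3 had the values given above, and Itgb8, the αv partner known for the release of active TGFβ, had 3.01 and 2.61 TPM. Itgb4, the hemidesmosome partner of α6, had 2.85 and 2.18 TPM. The leukocyte subunits Itgb2 and Itgb7 had 4.52 and 3.08 TPM and 2.05 and 1.07 TPM. Neighbours in this order that did not differ in both libraries were Itgb6 and Itgb2, Itgb2 and Itgb3, and Itgb8 and Itgb4.

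The summed TPM of the 12 α subunits that pair with β1 was 275 in replicate 1 and 260 in replicate 2, so Itgb1 was 1.26 ± 0.0296 times the sum of its known partners. Itgb2 was 1.29 ± 0.0340 times the sum of its 4 partners. Itga6 was 29.4 ± 4.03 times Itgb4. Over long coding transcripts Itgb1 was 1.87 ± 0.0542 times its partners and Itga6 was 13.7 times Itgb4 in replicate 1 and 16.4 times in replicate 2. On that scale Itgb2 was 1.36 times its partners in replicate 1 and 0.752 times in replicate 2, so its direction did not hold. These ratios were chosen after the values were seen.

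Gene TPM sums over all annotated transcripts, and for several members short transcripts held much of it. A very short transcript needs few reads to reach a high TPM. The level was therefore also taken over long coding transcripts alone, those annotated as protein-coding in M21 with at least 50% of the length of the longest such transcript of the gene. This measure was chosen after the data were seen. In 6 of the 34 detected members, long coding transcripts held under 50% of the gene TPM in both libraries, against 14.3% of detected protein-coding genes. These members were Itgav, Lama5, Lama2, Itga2b, Itga4 and Itgb8.

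The lowest share of gene TPM in long coding transcripts among detected members, 24.0%, was in Itgav. Its transcript Itgav-205, of 463 nt, held 68.7% and 69.7% of the gene TPM on 12.3% and 13.3% of the reads. It lies within the last 5% of the gene. The long forms Itgav-201 and Itgav-202 had 7.24 and 5.70 TPM and 6.40 and 6.70 TPM, and all long coding transcripts together had 13.6 and 12.4 TPM. Itgav thus ranked 2nd of the 18 α subunits by gene TPM and 7th by long coding transcripts, below Itga5, Itga8, Itga3, Itga1 and Itga9 in both libraries.

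In Lama5 the processed transcripts Lama5-202, Lama5-203 and Lama5-204, of 451, 734 and 478 nt at the 3′ end of the gene, together outweighed the full-length form. They held 26.8% ± 0.990, 21.8% ± 1.34 and 22.5% ± 1.29 of the gene TPM. The full-length Lama5-201 had 21.3 and 18.6 TPM on 91.6% and 90.6% of the reads. On this scale Lama4, with 62.1 and 58.6 TPM in Lama4-201, held 64.2% ± 1.61 of the summed α chain TPM, Lama5 21.2% ± 0.690 and Lama3 8.84% ± 1.07. Lama3 then stood above Lama2 in both libraries, with 9.45 and 7.25 TPM against 3.55 and 3.25 TPM for Lama2. The order Lama4, Lama5, then the rest was the same on both scales.

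Lama4-207, a retained intron transcript of 511 nt, held 29.5% ± 1.51 of the Lama4 TPM on 2.86% and 3.14% of the reads. Lamc1-204, a coding transcript of 1447 nt, held 35.1% and 37.2% of the Lamc1 TPM on 8.95% and 9.70% of the reads. Over long coding transcripts Lamc1 had 65.8 and 62.1 TPM. Among detected members, 12 transcripts outside the long coding set held 20% or more of their gene's TPM in both libraries. Of these, 8 lay in the 3′ part of their gene, starting past 50% of its span. The 4 others were Itga4-203, Itgb8-202, Itgb8-203 and Lama2-206, which start at the 5′ end. These counts were not set against the same counts over all genes and describe the members alone. No short transcript held such a share in the remaining detected members, among them Itgb1, whose transcript Itgb1-201 held 99.4% and 99.6%.

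**Figure D3:**
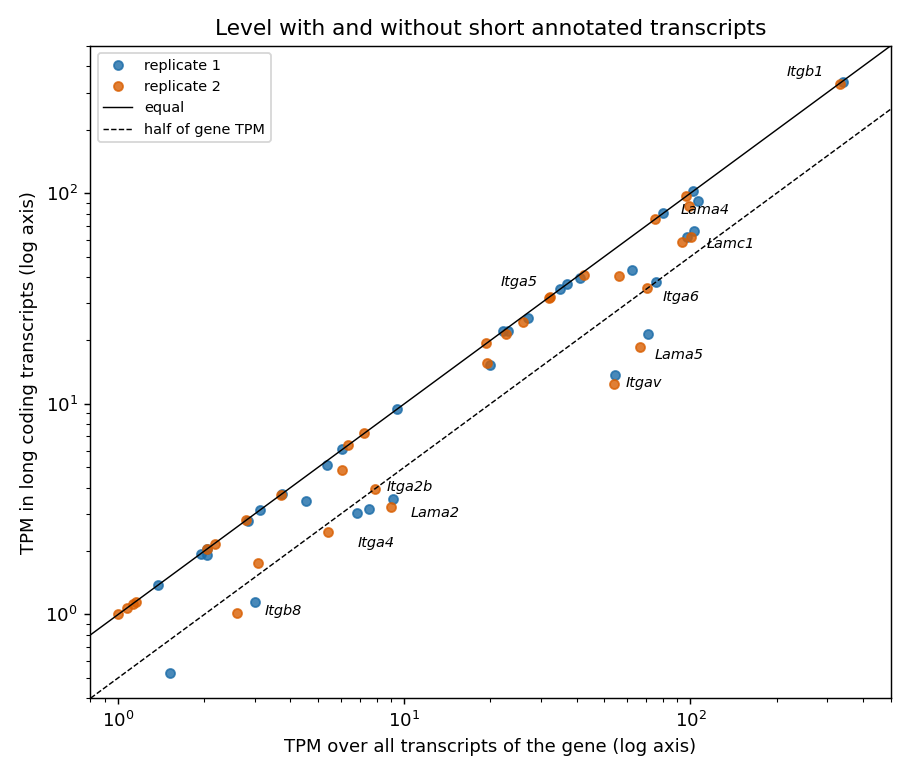
TPM over all transcripts of a gene (horizontal log axis) against TPM in its long coding transcripts (vertical log axis) for the detected members described here, in replicate 1 and replicate 2; the solid line marks equal values and the dashed line 50% of the gene TPM. Of the detected members 11 lie on the solid line, others lie below it by varying amounts, and Itgav, at 54.7 and 53.9 against 13.6 and 12.4 TPM, lies farthest below the dashed line on these log axes.

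The A and B ends printed above were told apart by transcript. Itga6-201, which keeps the A exon (chromosome 2, 71853534 to 71853663), had 36.8 and 34.1 TPM, and Itga6-207, which also keeps it, had 1.22 and 0.69 TPM. Itga6-202, the coding form without that exon, had 0 TPM in replicate 1 and 0.84 TPM in replicate 2. By coding transcripts the A exon was thus kept in 98.8% ± 1.67 of the TPM.

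A further transcript makes that split uncertain. Itga6-203, of 2721 nt and annotated as noncoding, also joins the exon before the A exon directly to the last exon, and had 26.1 and 24.3 TPM on 29.2% and 28.8% of the Itga6 reads. With its TPM counted among forms that skip the A exon, the share that kept it was 59.3% and 58.1%. The last exon of Itga6-203 runs past the annotated ends of Itga6-201 and Itga6-202, so reads from that added stretch can be assigned to Itga6-203 alone among them, whichever form they came from. Which share is the right one cannot be told apart with these tables.

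**Figure D4:**
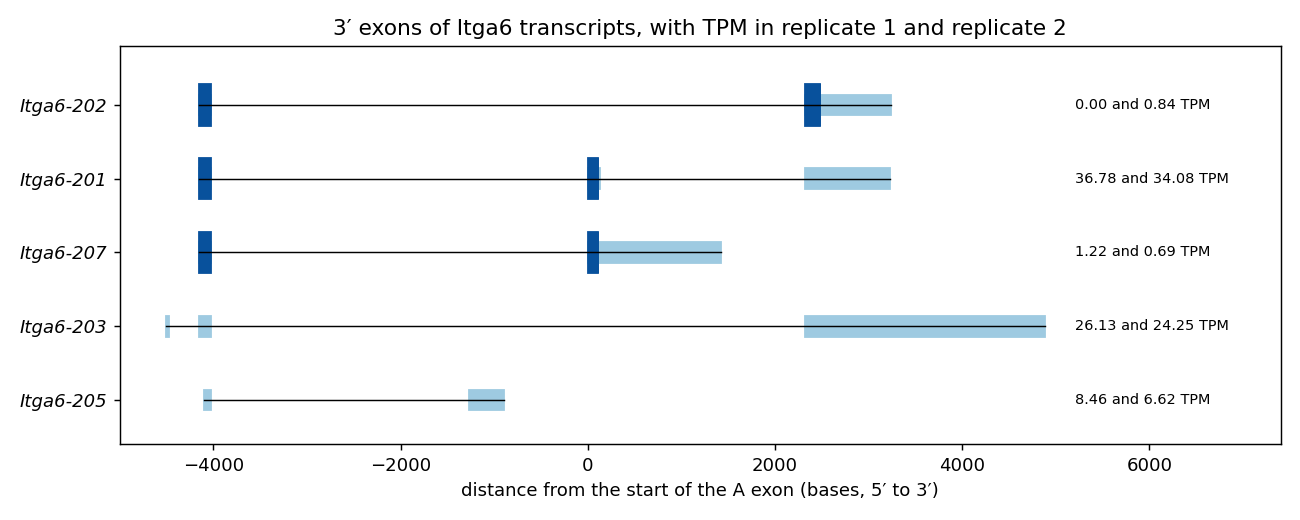
Exons of Itga6 transcripts near the 3′ end of the gene, drawn to scale by distance in bases from the start of the A exon, with coding parts tall and dark and other exon parts low and light; TPM in replicate 1 and replicate 2 stand on the right. The A exon at 0 is present in Itga6-201 and Itga6-207 and skipped by Itga6-202 and Itga6-203, whose last exon also extends farthest.

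Itga3 was mostly in the A form. Itga3-201 and Itga3-202, which keep the A exon (chromosome 11, 95046449 to 95046590), had 20.0 and 21.4 TPM together. Itga3-203, with the B end, had 2.21 TPM in replicate 1 and 0 TPM in replicate 2. The A share was 90.0% and 100% of these forms, and the B form was above 0 TPM in replicate 1 alone. Its deposited interval in replicate 2 reached 2.47 TPM, above its value in replicate 1. Whether the B form was absent from replicate 2 was thus not settled. No annotated transcript with a large share stood outside this split, unlike in Itga6.

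Several other members had more than 1 coding form. Lama3-201, the long form that encodes the extended α3 chain, had 6.14 and 4.85 TPM, and Lama3-202, the short form of the hemidesmosomal laminin, had 3.31 and 2.40 TPM. The long form was 65.9% ± 1.36 of the Lama3 TPM. Itgb6-202 held 77.1% and 63.2% and Itgb6-209 13.7% and 12.4%. Itgal-202 held 79.4% and 69.8% and Itgal-203 20.6% and 30.3%. By posterior mean TPM these shares were 48.51% and 30.16% for Itgal-202 and 21.48% and 35.65% for Itgal-203, with 24.95% and 20.56% in Itgal-201. The order of Itgal-202 and Itgal-203 thus turned in replicate 2 on that measure, and the Itgal split was not settled. In Itgb4, Itgb4-202 held 66.6% and 59.8%, while Itgb4-201 was at 0% in replicate 1 and 35.0% in replicate 2. With 421 and 303 reads for the gene, the split among the Itgb4 forms was not stable between libraries. The same held for Itgam, where Itgam-201 held 27.2% and 99.2% on 151 and 127 reads, and where 3 of the deposited transcripts are not listed under this gene in M21.

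The libraries were compared because they are the only replicates. A gene was called apart if its mean was 5 TPM or more, its TPM differed 2-fold or more after scaling by TMM, and its deposited intervals did not overlap. None of the 39 genes was apart, with 24 of them at 5 TPM or more, against 0.355% of all genes tested (40 of 11261). No test of a difference between the pools exists, since each pool has 1 library.

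The log2 ratio of replicate 1 over replicate 2 had a median of 0.03 over the 11 laminin chains and of 0.03 over the 21 detected integrin subunits, beside -0.01 over all detected protein-coding genes. Of the 34 detected members 20 were higher in replicate 1, against 47.3% of detected protein-coding genes. Members above 50 TPM lay between -0.05 and 0.09, within the SD of 0.12 of all genes at 50 to 100 TPM. The members farthest from 0 were low ones.

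The highest of the leukocyte subunits, Itgb2, had a mean of 3.80 TPM, so the rule with its minimum of 5 TPM could call none of them apart. By gene TPM the 4 detected ones, Itgb7, Itgal, Itgb2 and Itgam, were all higher in replicate 1, against 47.3% of detected protein-coding genes. Their median log2 ratio was 0.58. Itgae was at 0.99 TPM in replicate 1 and 0.37 TPM in replicate 2, a log2 ratio of 1.35 on 98 and 34 reads. Itgb7 had a log2 ratio of 0.87, Itgal of 0.68, Itgb2 of 0.48 and Itgam of 0.36. The direction of Itgam turned over long coding transcripts, with 0.53 and 1.12 TPM, and its deposited intervals overlapped. Itgax, with 0.04 and 0.07 TPM on 4 and 7 reads, was lower in replicate 1, and Itgad had 4 and 0 reads. These read counts are too few to give a direction. With 1 TPM added to each value, the log2 ratio was 0.47 for Itgae and 0.49 for Itgb7. The SD of the log2 ratio over all genes was 0.35 at 1 to 2 TPM and 0.37 at 2 to 5 TPM. With no minimum on the level, Itgae was the only member apart, against 1.28% of all genes. Of the T cell and thymus markers, Cd3e had 9.22 and 1.49 TPM, Lck 21.1 and 6.97 TPM and Rag1 2.46 and 0.50 TPM, and none was at 0. The macrophage and leukocyte markers summed to 161 and 148 TPM, with Ptprc, carried by all leukocytes, at 6.20 and 3.13 TPM and Csf1r, of macrophages, at 15.1 and 14.4 TPM. The part of these cells in the leukocyte subunit values was not tested.

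Lama3, with a log2 ratio of 0.31, and Itgb4, with 0.32, were also higher in replicate 1. The SD over all genes was 0.27 at 5 to 10 TPM, the range of Lama3, and Itgb4 lay within the SD of its range. Of the hemidesmosome genes, Krt5, a basal keratin with 9.51 and 3.95 TPM, was apart, with a log2 ratio of 1.20. Krt14 had a ratio of 1.00, Dst of 0.19 and Cd151 of 0.08, while Plec had -0.07 and Col17a1 -0.17. Lamb3 had a ratio of 0.15. Foxn1, a marker of thymus epithelium, had 1.60 and 0.30 TPM, and the part of thymus in these values was not tested.

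**Figure D5:**
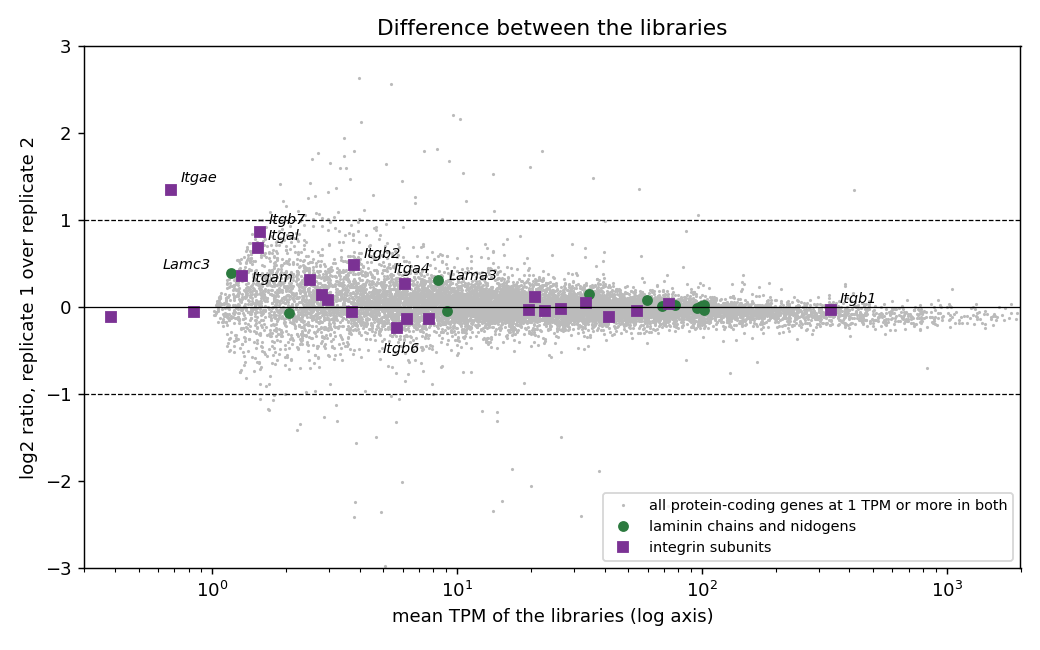
Log2 ratio of TPM in replicate 1 over replicate 2 after TMM scaling, against mean TPM on a log axis, for laminin and nidogen genes (circles), integrin subunits (squares) and all detected protein-coding genes (grey points); members below 0.3 TPM are left out and dashed lines mark 2-fold. Itgae, at 1.35, is the only member shown beyond 2-fold, and members above 50 TPM lie close to 0.

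Other genes of the pathway were read from lists of partners. Of 20 basement membrane partners 18 were detected and none was apart, with a median of 25.5 ± 1.38 TPM. Sparc, a collagen-binding protein, led with 1890 and 1758 TPM, followed by Col4a1, the type IV collagen chain, with 264 and 242 TPM and Col18a1 with 232 and 215 TPM. The lowest was Frem3 with 0.16 and 0.09 TPM.

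Of 22 other integrin ligands 18 were detected and none was apart; their median was 44.8 ± 1.06 TPM. Fibrillar collagens led, Col3a1 with 1359 and 1264 TPM and Col1a1 with 1062 and 998 TPM, followed by Mfge8, a ligand of αv integrins, with 305 and 295 TPM. Fn1 and Npnt were named for the members they bind, after their values were seen. Fn1, the fibronectin bound by α5β1, had 120 and 107 TPM. Npnt, the nephronectin bound by α8β1, had 82.9 and 77.1 TPM. The lowest was Madcam1, a ligand of α4β7, with 0.86 and 0.55 TPM. Vtn, the vitronectin gene, had 1.04 and 8.64 TPM, and the fibrinogen genes Fga, Fgb and Fgg had 0.66 and 3.35, 0.41 and 2.28, and 0.64 and 3.44 TPM. Each of these 4 ligands had a mean under the minimum of 5 TPM, so the rule could not call it apart. These ligands are made by the liver and were lower in replicate 1, as were the liver markers. Of those markers Alb had 4.82 and 23.3 TPM. The part of liver RNA in the ligand values was not tested.

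All 6 laminin receptors other than integrins were detected and none was apart, with a median of 130 ± 6.82 TPM. Rpsa, a ribosomal protein that also binds laminin, had 705 and 720.4 TPM, Bcam, the receptor of the α5 chain, 291 and 262 TPM and Sdc4 151 and 135 TPM. Mcam, known to bind the α4 chain, was lowest with 77.5 and 71.3 TPM. All 26 genes of integrin activation and adaptors were detected and none was apart, with a median of 49.4 ± 1.09 TPM. Ilk, a scaffold at integrin β tails, led with 370 and 349 TPM, followed by Rap1b with 243 and 233 TPM and Lims1 with 197 and 187 TPM. Apbb1ip was lowest, with 1.72 and 1.36 TPM. The 6 hemidesmosome genes were all above the detection minimum, and their median was 7.78 ± 2.53 TPM. Plec, which links hemidesmosomes to keratins, led with 33.8 TPM in both libraries, followed by Cd151 with 21.1 and 19.0 TPM and Dst with 9.63 and 8.04 TPM. Krt14 was lowest with 2.16 and 1.03 TPM, and Krt5 was the only gene of these 5 lists that was apart.

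The start regions of the members differed in their number of CG dinucleotides. Windows of 250 bases before a transcription start, from RefSeq on GRCm38.p6, matched 24 of the 39 genes in 27 windows. The windows of members at 10 TPM or more had a median of 14 CG (range 2 to 22, 15 windows), those of members under 10 TPM had 5.5 (0 to 12, 12 windows) and all 32851 windows had 6. At least 1 CG was in 26 of the 27 windows and in 92.1% of all windows; a CG reads the same on both strands. The windows of the highest and the lowest matched member are shown with CG in capitals, 21 in Itgb1 and 5 in Itgax.
Itgb1, chr8:128685404-128685653, plus strand: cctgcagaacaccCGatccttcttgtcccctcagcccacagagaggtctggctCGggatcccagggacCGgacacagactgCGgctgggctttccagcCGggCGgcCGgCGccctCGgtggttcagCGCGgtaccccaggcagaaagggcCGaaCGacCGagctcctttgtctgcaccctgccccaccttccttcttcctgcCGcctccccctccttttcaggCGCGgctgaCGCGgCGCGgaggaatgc
Itgax, chr7:128129300-128129549, plus strand: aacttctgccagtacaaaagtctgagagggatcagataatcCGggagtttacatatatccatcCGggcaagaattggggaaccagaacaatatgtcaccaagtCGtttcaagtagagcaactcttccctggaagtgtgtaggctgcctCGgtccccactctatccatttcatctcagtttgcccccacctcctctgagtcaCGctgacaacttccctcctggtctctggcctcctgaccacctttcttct
The count of CG is a description of these windows and was set against level without a test.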

How the data were processed

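The authors deposited a gene and a transcript table per library. Per the file headers, these hold expected counts (estimated reads), TPM, FPKM, posterior means, a TPM interval of unstated level and, per transcript, the percent of gene TPM. Build mm10 and annotation M4 are named in the deposited text; for the program, its version and strand use the sources used here give nothing. For 3 members in replicate 1 and 6 in replicate 2 the TPM lay outside its interval, which surrounds the posterior mean. Itgb1, Nid1 and Nid2 lay above their intervals in both libraries. The intervals of Itgb1 ended at 337 TPM in replicate 1 and 329 TPM in replicate 2. Names and positions came from GENCODE M21 on GRCm38; 167 of 183 member transcripts had the same length there. The 26248 numbered features that name no gene held 71 and 66 reads and were left out, as were 97 spike-ins. Expected counts were rounded for edgeR 4.0.16 (TMM, common dispersion) and DESeq2 1.42.0 (size factors, an alternative) in R 4.3.3. TMM scaling was moved onto TPM as a log2 shift of 0.07. Levels of 2 genes were called different if their order held in both libraries and their intervals overlapped in neither. Library counts differed by more than sampling noise (over 19397 genes, chi-square divided by its degrees of freedom was 6.65). A count of 0 was given a limit of 3 reads; this limit covers counting error alone, and the deposited intervals also the assignment of reads. The levels of 1 member, and the sums, shares and medians that rest on it, are not reported here and its points are not plotted; counts of members include it. The other members are all named, with the 3 highest, the lowest and any apart of each partner list, and coding transcripts with 10% or more of the TPM of genes with several. The members and lists were chosen with earlier results of these data known. The step that called genes apart was tested on simulated counts, which hold no uncertainty of read assignment. How the rule performs with the deposited intervals was not tested.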

Additional observations from a re-analysis of the deposited data

How the results depend on the processing

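With the depth of these libraries, members below 1 TPM rest on 0 to 103 reads each, and with 2 libraries an SD is itself uncertain. Between 30 and 35 members were detected under the alternatives tried, 34 in the deposited TPM. The number of members apart stayed at 0 under every alternative except no minimum on the level, which gave 1. For all genes the count of 40 became 81 with a 1.5-fold rule, 63 with an exact binomial test in place of intervals, 157 with a mean of 1 TPM or more and 320 with no minimum. The binomial test takes reads as its units and does not measure variation between pools. Expected counts, not divided by length, gave shares of 50.6% for Lama4, 58.6% for Lamb1 and 85.8% for Itgb1. Long coding transcripts alone, chosen after seeing the data, gave 64.2%, 54.0% and 85.5% in the same order, and a median of 3.29 TPM for integrin subunits. Posterior mean TPM gave 83.7% for Itgb1, and detected members alone gave an integrin median of 6.60 TPM. No paired analysis was possible because there is 1 group.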
